A study of Mus musculus with 16 samples.

Results

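The 10 genes studied here couple integrins to the actin cytoskeleton and were followed in RNA sequencing of the mouse left ventricle. They are the talins Tln1 and Tln2, vinculin (Vcl), the kindlins Fermt2 and Fermt3, and integrin-linked kinase with its partners (Ilk, Lims1, Lims2, Parva and Parvb). They were chosen by gene symbol from the count table, 10 of its 24982 entries, with earlier results of these data known. The tissue came from 16 C57BL/6 mice, 1 library each. The knockout group held 8 mice that the labels give as Tln2-null with a Tln1-specific CF knockout, CF being read here as cardiac fibroblasts. The Tln2-null group held 8 mice labelled only as Tln2-null. Whether those 8 also carry an altered Tln1 allele or its driver is not stated. Each group had 4 males and 4 females. All 16 mice received intraperitoneal tamoxifen for 5 days and, after 2 weeks, angiotensin II (AngII), a hormone that raises blood pressure, from osmotic pumps for 8 weeks. No wild-type mouse and no mouse without AngII is among these samples, so each comparison is between mice that are labelled null for Tln2 and were given AngII. The labels state neither the ages of the mice, nor the driver of the Tln1 deletion, nor the deleted exons of either talin gene. Nothing in the labels says whether littermates or shared cages were used. The p-values set a difference or relation against the spread between these mice, taken as independent.

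Integrins are transmembrane receptors for extracellular matrix. Talin binds their beta-subunit tails, switches them to the active state and ties them to actin, and stretched talin recruits vinculin, which adds further actin links. Kindlins bind the same tails at a separate site and act with talin. Kindlin also recruits integrin-linked kinase (ILK), a pseudokinase that forms a stable trimer with a PINCH protein (encoded by Lims1 or Lims2) and a parvin (Parva or Parvb). In heart muscle these proteins sit at costamers and intercalated discs, and in fibroblasts they sit at focal adhesions. Fermt3 encodes the kindlin of blood cells, and Fermt2 the kindlin of most solid tissues.

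The genes lie on separate stretches of the mouse genome, given here in GENCODE M21 coordinates of GRCm38. Tln1 spans chr4:43531519-43562691 and Tln2 chr9:67217087-67559703, both on the minus strand. Vcl spans chr14:20929398-21033676 on the plus strand. Fermt2 (chr14:45458795-45530118) and Fermt3 (chr19:6998958-7019469) lie on the minus strand. On the plus strand lie Ilk (chr7:105736592-105742925), Parva (chr7:112427505-112591692), Parvb (chr15:84232043-84315688), Lims1 (chr10:58323466-58424691) and Lims2. Values count reads over whole genes. Exons of Taf10 on the opposite strand cover 76.7% of the exonic bases of Ilk and those of Rrp8 12.9%, and exons of Ap3m1 cover 25.5% of those of Vcl. The labels do not state the strand setting of the counting, so the levels of Ilk and Vcl are uncertain in that respect. The overlaps of Tln1 with Creb3, of Lims2 with Gpr17 and of Fermt3 with Trpt1 cover 3.7%, 6.1% and 1.5%.

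Promoter windows of 300 bases, from 250 before to 50 after an annotated start site, were found in RefSeq (GRCm38.p6) for 7 of the 10 genes. Those of Vcl, Fermt2 and Lims1 are printed because the joint variation of Fermt2 and Lims1 and the relation of Vcl to the sample number, both described below, turn on these genes. For Lims1 it is the first of 3 windows. Capitals mark motif matches on either strand: the GC box GGGCGG, the CCAAT box CCAAT, the TEAD site GGAATG, and the CArG box, the sequence bound by serum response factor. The E-box CACGTG, the TATA box TATAAA, the AP-1 site TGANTCA and the Ets site CCGGAAG were also searched and are not in these 3 windows.
Vcl, chr14:20929148-20929447, plus strand: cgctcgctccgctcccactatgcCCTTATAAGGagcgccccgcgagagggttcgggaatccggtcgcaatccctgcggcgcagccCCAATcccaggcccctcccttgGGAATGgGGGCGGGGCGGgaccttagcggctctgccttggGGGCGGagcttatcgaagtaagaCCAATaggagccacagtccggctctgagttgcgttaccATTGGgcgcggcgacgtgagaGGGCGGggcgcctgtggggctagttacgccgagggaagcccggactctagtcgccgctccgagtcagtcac
Fermt2, chr14:45530016-45530315, minus strand: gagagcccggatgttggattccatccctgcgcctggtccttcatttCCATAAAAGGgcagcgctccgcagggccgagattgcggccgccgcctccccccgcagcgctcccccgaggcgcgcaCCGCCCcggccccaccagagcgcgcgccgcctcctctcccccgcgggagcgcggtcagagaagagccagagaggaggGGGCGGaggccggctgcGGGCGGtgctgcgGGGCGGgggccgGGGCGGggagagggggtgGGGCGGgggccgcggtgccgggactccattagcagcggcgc
Lims1, chr10:58323297-58323596, plus strand: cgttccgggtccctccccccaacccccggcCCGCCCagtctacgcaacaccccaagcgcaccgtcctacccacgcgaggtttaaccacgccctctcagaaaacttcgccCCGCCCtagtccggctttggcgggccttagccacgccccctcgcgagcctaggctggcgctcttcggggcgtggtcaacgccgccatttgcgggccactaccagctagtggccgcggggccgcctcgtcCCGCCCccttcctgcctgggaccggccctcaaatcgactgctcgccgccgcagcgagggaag

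The Vcl window holds 4 GC boxes, the first pair overlapping by 1 base, 3 CCAAT boxes, 1 TEAD site and 1 CArG box whose first base lies at -227 from the start site. The Fermt2 window holds 6 GC boxes and 1 CArG box that begins at -204. The 7 genes have 10 windows in all. CArG boxes were found in 2 of these 10 windows and in 1.63% of 32851 mouse promoter windows of the same length. The Lims1 window holds 3 GC boxes. GC boxes were found in 5 of the 10 windows and in 35.7% of all windows. These matches describe letters in a window and say nothing of binding.

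Library totals ran from 11161766 counts in knockout 8 to 19221673 in knockout 5. At these totals 3 counts, the floor used here, corresponded to 0.156 to 0.269 CPM (counts scaled to a library of 10 to the power 6). Levels of genes are given in CPM after TMM scaling, which the floor does not include. Cardiomyocyte markers dominated: the 8 on the list summed to 43227 to 51816 CPM in knockout and 44049 to 48449 CPM in Tln2-null mice. Fibroblast markers summed to 1223 to 2122 CPM in knockout and 1414 to 2423 CPM in Tln2-null mice, with 0 of 8 higher in the knockout (median log2 fold change -0.37). Endothelial markers summed to 1595 to 1987 CPM in knockout and 1608 to 1976 CPM in Tln2-null mice, and mural markers to 1312 to 1643 CPM in knockout and 1286 to 1890 CPM in Tln2-null mice. Macrophage markers summed to 219 to 296 CPM in knockout and 246 to 298 CPM in Tln2-null mice. Granulocyte markers had sums of 11.6 to 51.4 CPM in knockout and 9.67 to 82.5 CPM in Tln2-null mice. That list joins S100a8, S100a9, Csf3r, Mmp9 and Retnlg with the mast cell genes Cpa3, Cma1 and Mcpt4. Platelet markers summed to 12.99 to 20.2 CPM in knockout and 15.6 to 23.7 CPM in Tln2-null mice, and lymphocyte markers to 1.96 to 7.65 CPM in knockout and 2.51 to 5.46 CPM in Tln2-null mice. Of the 8 markers on each list, 4 platelet and 6 lymphocyte markers passed the filter on low counts, and all 8 did on every other list. No marker was at 0 in all libraries. Knockout 8 and Tln2-null 8 stood apart by the clock gene Arntl (27.1 and 28.4 CPM, against 3.66 to 8.44 CPM elsewhere), and Tln2-null 5 by the heat shock gene Hspa1a (85.9 CPM, against 2.88 to 8.91 CPM). Of the 8 females, 3 of the knockout and 1 of the Tln2-null group carried Y-linked counts of 1.10% to 2.85% of the male mean. The other females carried 0.176% to 0.393%. Replicate numbers follow the order of the records and only name a mouse.

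Levels of different genes were compared per kilobase of exon. Fermt2 stood highest, at 57.8 ± 2.74 CPM per kilobase over the 16 mice (SD), and lay above every other member in 16 of 16 mice. Lims1 followed at 45.8 ± 6.16 and Ilk at 44.0 ± 3.06 CPM per kilobase. This pair cannot be ordered, since Lims1 exceeded Ilk in 7 of 16 mice. Lims2 (33.6 ± 4.86), Parvb (30.6 ± 2.45), Tln1 (28.7 ± 2.74) and Vcl (23.0 ± 2.33 CPM per kilobase) came next. Lims2 exceeded Parvb in 11 of 16 mice and Parvb exceeded Tln1 in 9 of 16, so these neighbours were not separated either. Parva reached 6.88 ± 0.593, Tln2 3.65 ± 0.283 and Fermt3 1.01 ± 0.167 CPM per kilobase, and each exceeded the next in 16 of 16 mice. Per length of the longest coding transcript, ranks 2 to 7 changed order, and Fermt2, Parva, Tln2 and Fermt3 kept theirs.

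**Figure D1:**
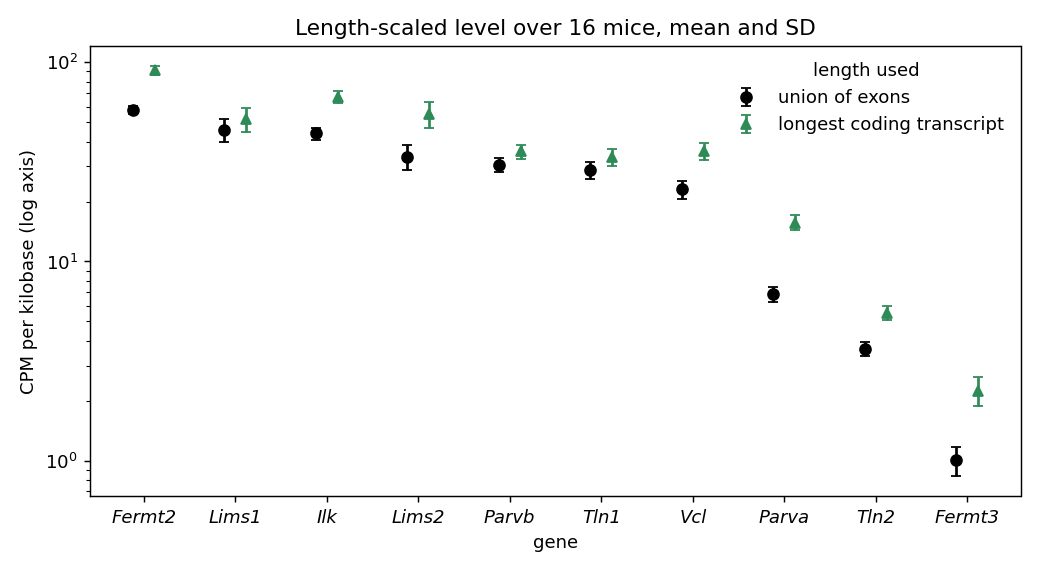
Level of each gene per kilobase over the 16 mice (mean and SD, log axis, CPM per kilobase), with the union of exons or the longest coding transcript as the length. Fermt2 is highest (57.8 CPM per kilobase of exon) and Parva, Tln2 and Fermt3 are lowest with either length.

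Within each pair of paralogs 1 gene made most of the transcripts, except for the PINCH genes. Per kilobase, Tln1 made 88.3 ± 1.31% of talin transcripts in knockout and 89.0 ± 0.796% in Tln2-null mice (SD, n = 8 each). Fermt2 made 98.4 ± 0.272% of the kindlin transcripts in knockout and 98.2 ± 0.319% in Tln2-null mice. For the parvins, Parva made 18.3 ± 1.37% in knockout and 18.6 ± 1.96% in Tln2-null mice, so Parvb was the larger part. The size of a share depended on the length used. Per length of the longest coding transcript, Parva made 30.4 ± 1.94% in knockout and 30.8 ± 2.81% in Tln2-null mice. Tln1 then made 85.4 ± 1.59% in knockout and 86.2 ± 0.968% in Tln2-null mice. Lims1 made 59.6 ± 6.46% of PINCH transcripts in knockout and 55.7 ± 3.03% in Tln2-null mice. With the longest coding transcript as length the share of Lims1 was 50.6 ± 6.77% in knockout and 46.6 ± 3.07% in Tln2-null mice. Which PINCH gene led thus depended on the length used.

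The comparison of the genotypes asks whether deletion of Tln1 in cardiac fibroblasts went with other levels of the adhesion machinery in the whole ventricle. It was fitted with edgeR's quasi-likelihood test over 13775 genes with sex as a term. No gene passed an adjusted p of 0.05 (0 of 13775, 0%), none of the 10 members among them. At an unadjusted p under 0.05 stood 700 genes (5.08%) and 0 of the 10 members. DESeq2 called 17 genes and limma-voom 11, with 0 members in either. Of the members, 3 were higher and 7 lower in the knockout by any amount (48.8% of all genes were higher and 51.2% lower), with a median log2 fold change of -0.066, against -0.0027 over all genes. In every one of the 10 genes the values of the groups overlapped, whereas they did not in 6 of the 13775 genes (0.0436%). The library is made from whole tissue, so fewer cells of a type and less RNA per cell cannot be told apart.

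**Figure D2:**
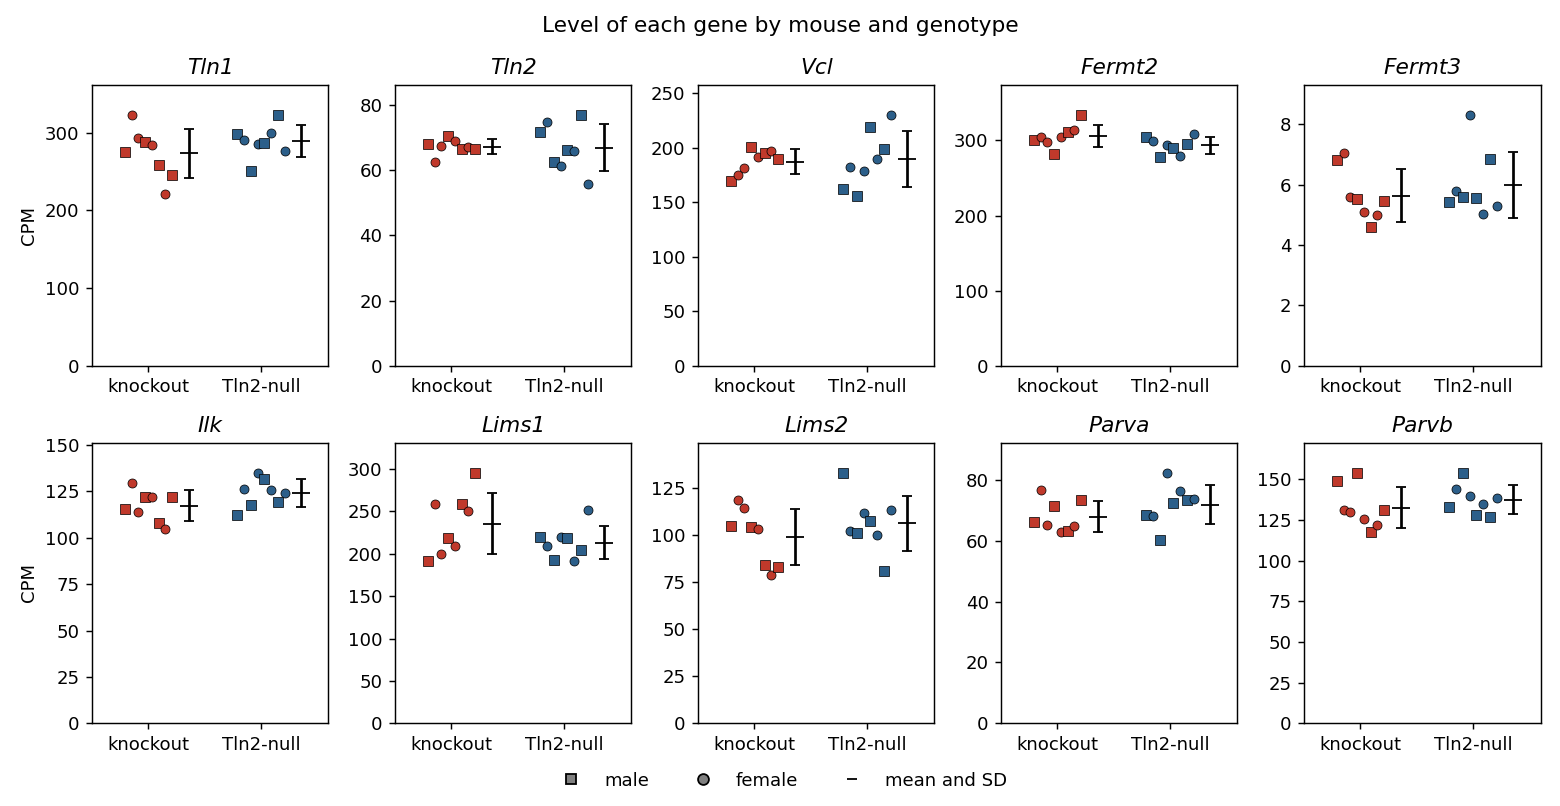
CPM of each gene in each knockout mouse (left) and Tln2-null mouse (right), males as squares and females as circles, with the mean and SD of the 8 mice beside them. The groups overlap for all 10 genes, and the highest Lims1 value is 296 CPM in knockout 8.

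Tln1 encodes talin-1, the targeted gene. Its lowest, median and highest levels were 221, 279 and 323 CPM in knockout mice, against 251, 289 and 322 CPM in Tln2-null mice. Knockout mice thus held both the lowest and the highest value, and 2 of the 8 lay above the Tln2-null mean. The log2 fold change was -0.08 ± 0.07 (SE; 95% interval -0.22 to 0.07; edgeR adjusted p = 0.942), a difference of -5.35% with an interval of -14.4% to 4.69%. Without knockout 7 the estimate was -0.03. Tln1 levels rose with the total count of the library (r = 0.66, permutation p = 0.00613, adjusted over 37 relations 0.0399; rho = 0.70, permutation p = 0.00336, adjusted 0.0414; r = 0.67 without knockout 8 and Tln2-null 8), and the part of depth in the genotype estimate was not tested. Tln2 encodes talin-2, a talin enriched in striated muscle and brain. It stood at 62.4, 67.1 and 70.4 CPM (lowest, median, highest) in knockout mice, against 55.6, 65.9 and 76.8 CPM in Tln2-null mice. The knockout values lay within the range of the Tln2-null values, and the log2 fold change was 0.0059 ± 0.06 (SE; 95% interval -0.12 to 0.13; adjusted p = 0.997). Transcripts of Tln2 were thus present in all 16 mice that carry a Tln2-null label. Counts over the whole gene do not show whether a deleted exon is missing, so they check neither deletion.

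Vcl encodes vinculin, which binds stretched talin and actin. It ranged over 170, 190.4 and 200.7 CPM (lowest, median, highest) in knockout mice, against 156, 186 and 230.1 CPM in Tln2-null mice. The knockout values again lay inside the Tln2-null range (log2 fold change -0.0165 ± 0.07, SE; 95% interval -0.17 to 0.14; edgeR adjusted p = 0.994).

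Neither kindlin gene passed the test between genotypes. Fermt2 stood at 282, 305 and 334 CPM (lowest, median, highest) in knockout mice, against 278, 295 and 309 CPM in Tln2-null mice. Of the 8 knockout mice, 7 lay above the Tln2-null mean and 3 above the Tln2-null maximum. The log2 fold change was 0.06 ± 0.04 (SE; 95% interval -0.03 to 0.15; edgeR adjusted p = 0.939), so increases over 10.9% lie outside the interval. Fermt3 is the kindlin of leukocytes and platelets and was the scarcest member. It had 4.62, 5.48 and 7.06 CPM in knockout mice, against 5.03, 5.57 and 8.31 CPM in Tln2-null mice (log2 fold change -0.08 ± 0.12, SE; 95% interval -0.34 to 0.17; adjusted p = 0.967).

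Ilk encodes the pseudokinase at the centre of the trimer. Its levels were 105, 119 and 129.7 CPM (lowest, median, highest) in knockout mice, against 113, 125 and 135 CPM in Tln2-null mice. Of the 8 knockout mice, 1 lay above the Tln2-null mean and 2 lay below the Tln2-null minimum. The log2 fold change was -0.08 ± 0.05 (SE; 95% interval -0.19 to 0.03; edgeR adjusted p = 0.935).

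Lims1 encodes PINCH-1 and Lims2 PINCH-2, LIM-domain adaptors that bind ILK. Lims1 stood at 192, 234 and 296 CPM (lowest, median, highest) in knockout mice, against 191, 214 and 252 CPM in Tln2-null mice. Above the Tln2-null maximum lay 3 knockout mice, and the lowest values of the groups were alike. Its log2 fold change of 0.14 ± 0.09 (SE; 95% interval -0.04 to 0.32; edgeR adjusted p = 0.935) was the largest of the 10 and did not pass. Without knockout 8 it was 0.09. Lims2 stood at 78.8, 103.8 and 119 CPM in knockout mice, against 81.2, 105 and 133 CPM in Tln2-null mice. Above the Tln2-null mean lay 2 of 8 knockout mice (log2 fold change -0.10 ± 0.10, SE; 95% interval -0.31 to 0.10; adjusted p = 0.946). Without Tln2-null 1 the Lims2 estimate was -0.04, and over all single libraries left out it lay between -0.15 and -0.04.

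The parvins bind ILK and actin. Parva, alpha-parvin, stood at 62.9, 65.5 and 76.6 CPM (lowest, median, highest) in knockout mice, against 60.3, 72.7 and 82.3 CPM in Tln2-null mice. The log2 fold change was -0.08 ± 0.06 (SE; 95% interval -0.21 to 0.05; edgeR adjusted p = 0.942). Parvb, beta-parvin, stood at 118, 131 and 154 CPM in knockout mice, against 127, 136 and 154 CPM in Tln2-null mice. Below the Tln2-null minimum lay 3 knockout mice (log2 fold change -0.05 ± 0.06, SE; 95% interval -0.18 to 0.07; adjusted p = 0.948).

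Across 27 other settings or left-out libraries none of the 10 genes was called. The direction turned for Tln2 (-0.04 to 0.04), Vcl (-0.08 to 0.03), Fermt3 (-0.14 to 0.07) and Parva (-0.11 to 0.02), and held for the other 6. The estimates of 7 members were below 0, and so were those of all 8 fibroblast markers (5 at an unadjusted p under 0.05) and of 6 of the 8 mural markers (median log2 fold change -0.26), with 0 called. All 8 cardiomyocyte markers had estimates above 0 (median 0.07, 2 at an unadjusted p under 0.05), and so had 4 of 6 lymphocyte markers (median 0.38), with 0 called. Of the endothelial markers 5 were higher and 3 lower, and so it was for the macrophage markers. Granulocyte markers stood at 4 higher and 4 lower, and platelet markers at 1 higher and 3 lower, with 0 called. Over all genes 5.08% had an unadjusted p under 0.05. The part of these cell types in the members' values was not tested.

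**Figure D3:**
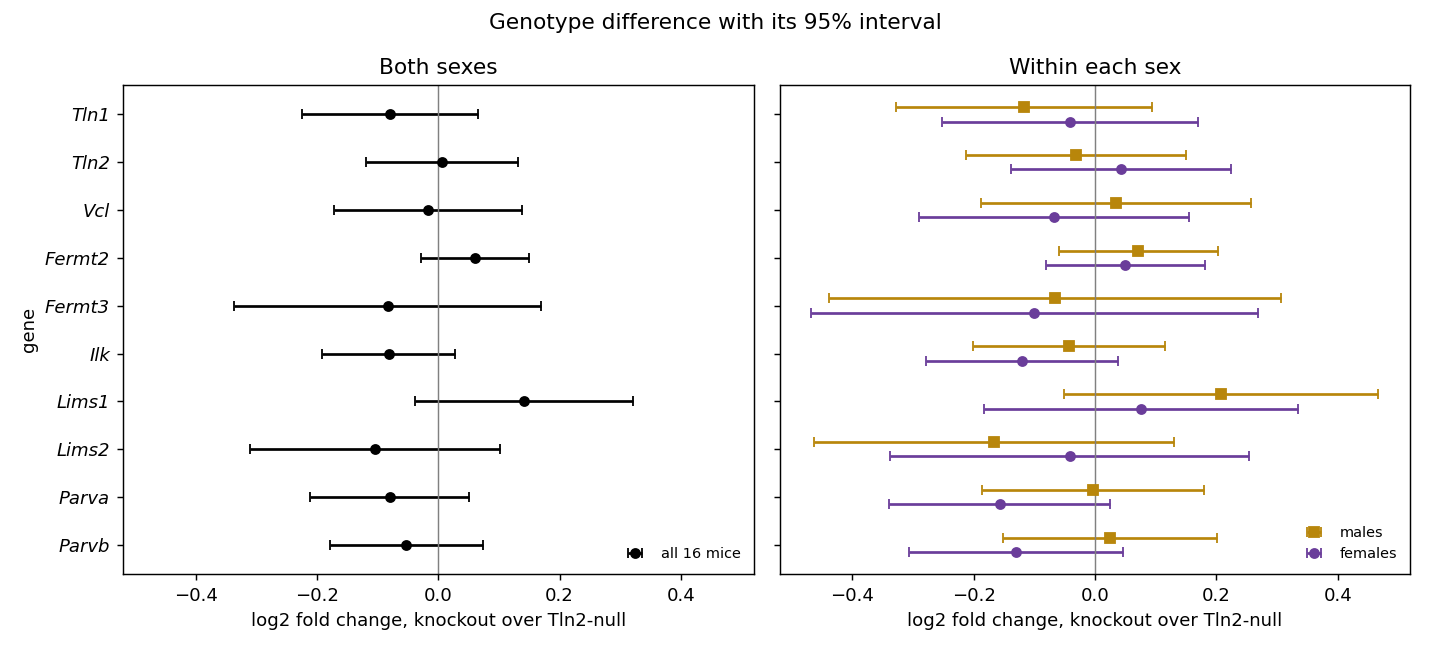
Log2 fold change of knockout over Tln2-null for each gene with its 95% interval, over all 16 mice (left) and within males and females (right). Every interval includes 0; the estimate farthest from 0 over all mice is that of Lims1 (0.14).

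Sex was balanced over the genotypes and was tested in the same fit. Over all genes 12 differed between males and females (0.0871%; 508 at an unadjusted p under 0.05, or 3.69%; 21 by DESeq2), and 0 of the 10 members. Their log2 fold changes, male over female, ran from -0.08 for Lims2 (99.9 ± 17.3 CPM in males and 105 ± 12.6 CPM in females, SD, n = 8 each) to 0.07 for Tln2 (68.5 ± 4.41 CPM in males and 65.4 ± 5.73 CPM in females). The edgeR adjusted p was 0.9998 for each of the 10.

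Within each sex, groups were of 4 mice. In males 0 genes were called (0%; 836 at an unadjusted p under 0.05, or 6.07%; 0 by DESeq2), and in females 0 (0%; 456, or 3.31%; 2 by DESeq2). No member was called in either sex. The farthest from 0 in males was Lims1, at 241 ± 45.6 CPM in knockout and 209 ± 13.04 CPM in Tln2-null males (SD, n = 4 each; log2 fold change 0.21 ± 0.12, SE; 95% interval -0.05 to 0.47; edgeR adjusted p = 0.785). Without knockout 8 the male Lims1 estimate was 0.09. In females it was Parva, at 67.3 ± 6.28 CPM in knockout and 75.1 ± 5.91 CPM in Tln2-null females (log2 fold change -0.16 ± 0.09, SE; 95% interval -0.34 to 0.03; adjusted p = 0.9998). Parvb in females stood at 127 ± 4.26 CPM in knockout and 139 ± 3.95 CPM in Tln2-null mice (-0.13 ± 0.08, SE), and in males at 138 ± 16.6 CPM in knockout and 136 ± 12.6 CPM in Tln2-null mice (0.03 ± 0.08, SE). The 4 knockout females lay between 122 and 131 CPM of Parvb and the 4 Tln2-null females between 135 and 144 CPM, without overlap, as was the case in females for 1 of the 10 members and for 2.06% of all genes. In males 0 of the 10 did not overlap, and 3.21% of all genes. The genotype difference in males minus that in females was 0.16 ± 0.12 for Parvb and 0.15 ± 0.12 for Parva (SE; adjusted p = 0.980 for each). For this difference, 0 genes were called (0%; 588 at an unadjusted p under 0.05, or 4.27%; 0 by DESeq2).

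A ratio of paralogs within a library needs no scaling between libraries. The count ratio of Lims1 to Lims2 was 1.75, 2.13 and 3.56 (lowest, median, highest) in knockout mice, against 1.65, 2.00 and 2.52 in Tln2-null mice. Knockout mice 6, 7 and 8 lay above the Tln2-null maximum at 3.07, 3.17 and 3.56, and the other 5 lay between 1.75 and 2.17. The titles of knockout 6, 7 and 8 end in 15, 16 and 18, the highest numbers of the series, and the part of this number in the ratios was not tested. The mean log2 ratio differed by 0.24 (1.249 ± 0.39 in knockout and 1.01 ± 0.18 in Tln2-null mice, SD, n = 8 each; exact two-sided permutation within sex p = 0.151, adjusted over 4 ratios 0.371). The ratio of Tln1 to Tln2 had a median of 4.07 in knockout and 4.27 in Tln2-null mice (log2 difference -0.10; exact permutation p = 0.240, adjusted 0.371). That of Fermt2 to Fermt3 had a median of 56.6 in knockout and 51.9 in Tln2-null mice (0.14; exact permutation p = 0.278, adjusted 0.371). That of Parva to Parvb had a median of 0.516 in knockout and 0.548 in Tln2-null mice (-0.025; exact permutation p = 0.772, adjusted 0.772). With single libraries left out, the difference was as low as 0.16 for Lims1 to Lims2 (without knockout 8), 0.07 for Fermt2 to Fermt3 (without Tln2-null 4) and -0.04 for Tln1 to Tln2 (without knockout 7), and that of Parva to Parvb ran from -0.08 to 0.0041. The 4900 exchanges allow no p under 0.0004.

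A list of 30 further genes held paralogs, binding partners and regulators of these proteins, and 29 of them were tested. The epidermal kindlin Fermt1 had 0 counts in all libraries. Between genotypes 11 of the 29 were higher and 18 lower by any amount, with 0 called and a median log2 fold change of -0.04. Over all genes 48.8% were higher and 51.2% lower, with 0% called. Of the 29, 2 had an unadjusted p under 0.05, beside 5.08% of all genes. The 6 of lowest p follow as a description. Apbb1ip, which encodes the Rap1 effector RIAM that brings talin to the membrane, stood at 7.74 ± 0.669 CPM in knockout and 9.14 ± 1.44 CPM in Tln2-null mice (SD, n = 8 each; log2 fold change -0.24 ± 0.10, SE; edgeR adjusted p = 0.916). Dok1, an adaptor that competes with talin for integrin tails, stood at 4.67 ± 0.846 CPM in knockout and 6.06 ± 1.86 CPM in Tln2-null mice (-0.37 ± 0.17, SE; adjusted p = 0.935). Parvg, the parvin of blood cells, had 1.01 ± 0.287 CPM in knockout and 1.33 ± 0.326 CPM in Tln2-null mice (-0.41 ± 0.20, SE; adjusted p = 0.935). Next in order of p came Arhgef6 (alpha-PIX, a parvin-binding exchange factor), at 121 ± 9.21 CPM in knockout and 113 ± 8.89 CPM in Tln2-null mice (0.10 ± 0.06, SE). Kank4, of the talin-binding KANK family, stood at 2.22 ± 0.291 CPM in knockout and 2.62 ± 0.622 CPM in Tln2-null mice (-0.24 ± 0.15, SE). Raver1, a vinculin-binding RNA-binding protein, stood at 11.1 ± 0.697 CPM in knockout and 12.1 ± 2.08 CPM in Tln2-null mice (-0.13 ± 0.09, SE).

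The members differed in how far they varied from mouse to mouse once genotype and sex means were taken out. Fermt2 varied least, with a residual SD of 0.067 on the log2 scale, lower than in all but 1.2% of the genes tested and all but 3.4% of the 3689 genes with 50 to 350 CPM. Ilk followed at 0.096 (9.2% of all genes vary less). The residual SD was 0.19 for Lims1, 0.22 for Lims2 and 0.24 for Fermt3, against a median of 0.18 over all genes tested. Among the genes with 50 to 350 CPM the median was 0.13, and 80.2% of them vary less than Lims1 and 87% less than Lims2. The remaining 5 lay between 0.11 and 0.16.

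Each sample title ends in a number between 1 and 18, the meaning of which the labels do not state. It was added as a linear term to the edgeR fit with sex and genotype after earlier results were known. Of 13775 genes 874 were called (6.34%), 407 higher (2.95%) and 467 lower (3.39%) with a higher number, and 2 of the 10 members. Lims2 fell by 0.029 on the log2 scale per 1 of the title number (SE 0.0076; adjusted p = 0.0360), and Vcl rose by 0.021 (SE 0.0058; adjusted p = 0.0403). The 4 lowest Lims2 levels were 78.8 CPM in knockout 7, 81.2 CPM in Tln2-null 7, 83.1 CPM in knockout 8 and 84.3 CPM in knockout 6, whose titles end in 16, 13, 18 and 15. The highest Lims2 level, 133 CPM, came from Tln2-null 1, whose title ends in 1. Vcl was lowest in Tln2-null 3 and 1 (156 and 163 CPM, title numbers 5 and 1) and highest in Tln2-null 8 and 5 (230.1 and 219 CPM, title numbers 14 and 9). Tln2-null 8 was also a library of high Arntl, and Tln2-null 5 the library of high Hspa1a. Lims1 had a slope of 0.017 that did not pass (SE 0.0079; adjusted p = 0.206). The range of the adjusted p over single libraries left out was 0.0178 to 0.110 for Lims2 and 0.0316 to 0.109 for Vcl. With single libraries left out, the Lims2 slope kept its sign in 16 of 16 and lay between -0.036 and -0.023, and the Vcl slope kept its sign in 16 of 16 and lay between 0.018 and 0.024. The Lims2 call ended without Tln2-null 1, 6 or 7 or without knockout 1, 2, 3, 6, 7 or 8. Both calls held in DESeq2 (adjusted p = 0.0106 for Lims2 and 0.00995 for Vcl). The Vcl call ended without Tln2-null 1, 4 or 8 or without the same 6 knockout mice. Without the 4 females with most Y-linked counts neither gene passed (slope -0.025 and adjusted p = 0.133 for Lims2, slope 0.023 and adjusted p = 0.0982 for Vcl). Without both libraries of high Arntl, Lims2 passed (slope -0.036, adjusted p = 0.0459) and Vcl did not (slope 0.021, adjusted p = 0.104). With the title number in the model, the genotype difference was 0.08 for Lims1 and -0.014 for Lims2, against 0.14 and -0.10 without it. That of Vcl moved the other way, to -0.08 with it against -0.0165 without it. The numbers are not evenly spread over the genotypes. Titles of knockout mice end in 3, 4, 8, 11, 12, 15, 16 and 18. Those of Tln2-null mice end in 1, 2, 5, 6, 9, 10, 13 and 14.

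**Figure D4:**
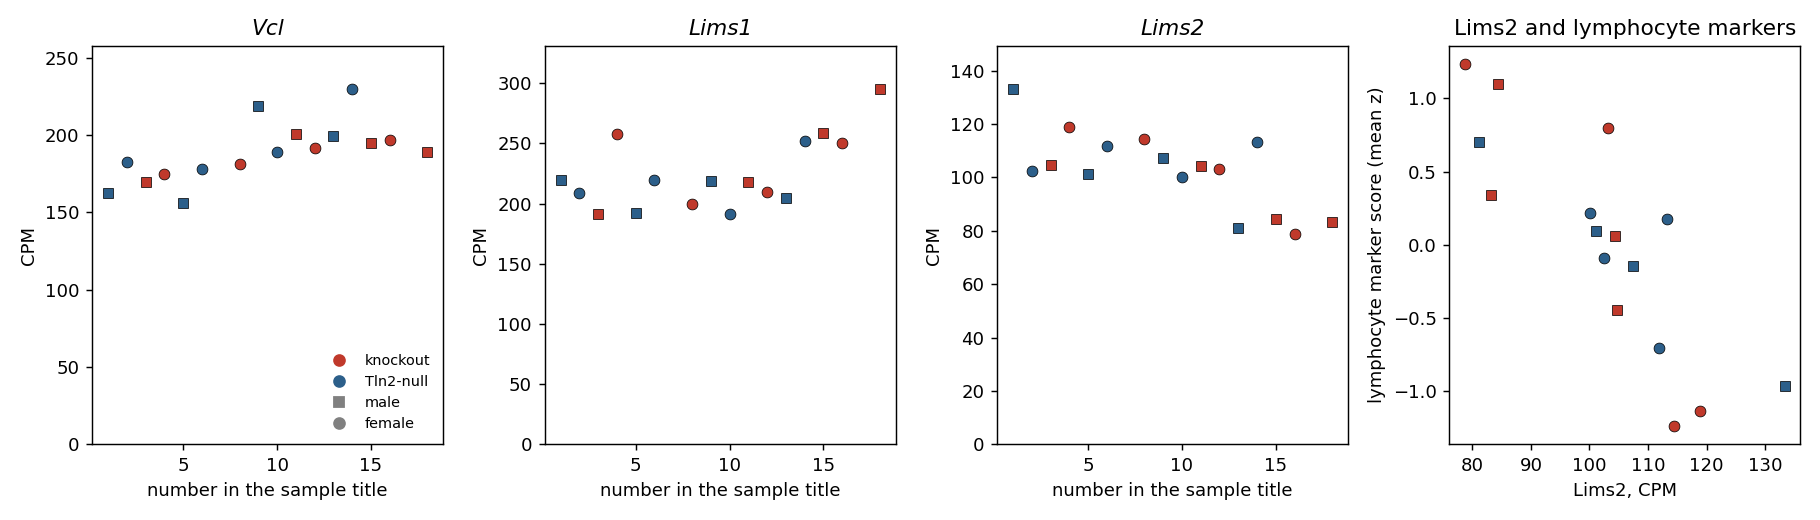
CPM of Vcl, Lims1 and Lims2 by the number in the sample title, and the lymphocyte marker score (mean z) by Lims2 level, with knockout mice in red, Tln2-null mice in blue, males as squares and females as circles. Lims2 stands at 133 CPM at title number 1 and at 83.1 CPM at 18, and lymphocyte scores are mostly higher in mice with less Lims2 (r = -0.83).

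Of the 29 partners, 2 rose with the title number and 2 fell. Sorbs2, an adaptor of the vinculin-binding vinexin family, rose by 0.029 per 1 (edgeR adjusted p = 0.0148) and Rap1a, a GTPase that activates talin through its effectors, by 0.026 (adjusted p = 0.0198). Sorbs3, vinexin, fell by 0.042 per 1 (adjusted p = 0.0367) and Kank3 by 0.029 (adjusted p = 0.0349). These are 4 of 29, beside 6.34% of all genes.

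Of the 45 pairs of members, 2 varied together over the 16 mice after Benjamini-Hochberg adjustment (Pearson r of log2 CPM; 100000 permutations, two-sided); 7 had an unadjusted p under 0.05 and the median r was -0.03. Fermt2 and Lims1 had r = 0.80 (permutation p = 0.00014, adjusted 0.0063; Spearman rho = 0.71, permutation p = 0.00307, adjusted 0.117). The r was 0.73 among knockout and 0.85 among Tln2-null mice. Knockout 8 had the highest level of both, 334 CPM of Fermt2 and 296 CPM of Lims1. Without knockout 8 and Tln2-null 3, the mice farthest from the median of Fermt2, r was 0.64 (permutation p = 0.0143). Without both libraries of high Arntl it was 0.65, with the genotype and sex means taken out 0.76, and with total counts also taken out 0.67. Total counts had r = -0.58 with Fermt2 (rho = -0.29; permutation p = 0.0199 and 0.273, adjusted over 37 relations 0.0921 and 0.543) and r = -0.57 with Lims1 (rho = -0.28; permutation p = 0.0191 and 0.287, adjusted 0.0921 and 0.543). Without knockout 8 and Tln2-null 8, the farthest in total counts, these were -0.17 and -0.14. The part of depth in the relation of the pair was not tested.

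Ilk and Parva, the kinase-like centre and its alpha-parvin, had r = 0.72 (permutation p = 0.00208, adjusted 0.0468; rho = 0.67, permutation p = 0.0052, adjusted 0.117). Within knockout mice r was 0.73 and within Tln2-null mice 0.65. Without knockout 7 and knockout 6 it was 0.69 (permutation p = 0.00687). With genotype and sex means taken out r was 0.63 and no longer passed (permutation, adjusted p = 0.203).

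**Figure D5:**
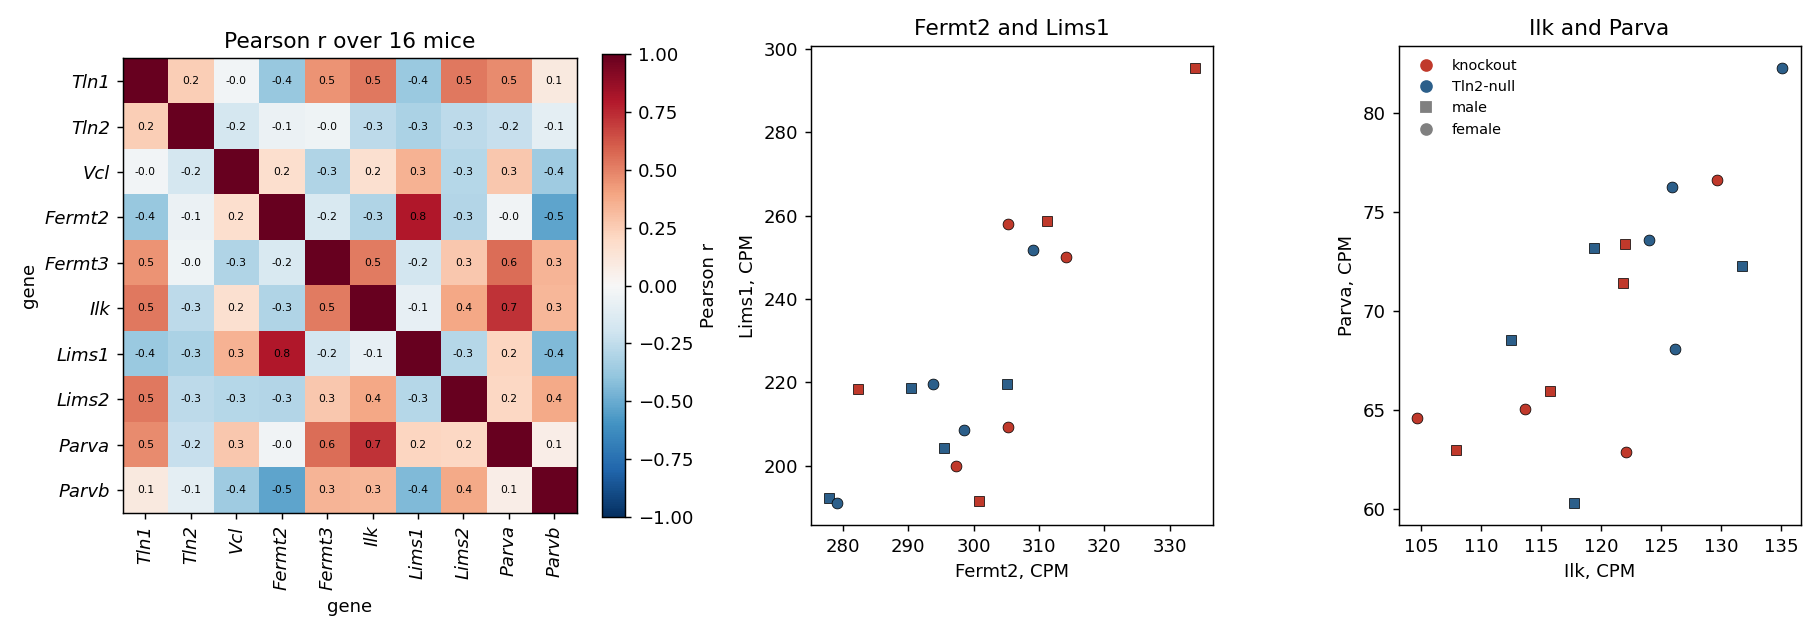
Pearson r between the 10 genes over 16 mice (left), and CPM of the 2 pairs that passed, Fermt2 with Lims1 and Ilk with Parva, with knockout mice in red, Tln2-null mice in blue, males as squares and females as circles. Knockout 8 lies at the upper right of the Fermt2 and Lims1 plot (334 and 296 CPM).

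Scores of cell type markers, the mean z-scored log2 CPM of each list, were compared with each member in 80 relations, of which 4 passed after adjustment (17 at an unadjusted p under 0.05). Parva and Ilk went with the fibroblast score. For Parva r was 0.73 (permutation p = 0.00132, adjusted 0.0379; rho = 0.76, permutation p = 0.0011, adjusted 0.044), and 0.73 without Tln2-null 4 and Tln2-null 3 (permutation p = 0.00395). For Ilk r was 0.74 (permutation p = 0.00142, adjusted 0.0379; rho = 0.70, permutation p = 0.00322, adjusted 0.0859), and 0.65 without knockout 7 and knockout 6 (permutation p = 0.0114). With genotype and sex means taken out, Parva passed (r = 0.72, permutation, adjusted p = 0.048) and Ilk did not (r = 0.64, permutation, adjusted p = 0.0859). Permutations with means taken out did not allow for the means already fitted, so these p-values are too low. A pass this near 0.05 is therefore not secure.

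Lims1 and the granulocyte score passed with genotype and sex means taken out and did not pass as measured. The pass is not secure, because the p-value with means taken out is too low, as above. Their r was 0.69 with the means taken out (permutation, adjusted p = 0.048) and 0.52 as measured (permutation p = 0.0406, adjusted 0.217; rho = 0.66, permutation p = 0.00711, adjusted 0.0948). Without knockout 8 and knockout 6, the mice with most Lims1, the measured r was 0.80 (permutation p = 0.00084).

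Fermt3 went with the endothelial score at r = 0.74 (permutation p = 0.00193, adjusted 0.0386; rho = 0.56, permutation p = 0.0243, adjusted 0.177). Without Tln2-null 4 and knockout 2, the mice with most Fermt3, r was 0.40 (permutation p = 0.161), so the relation over all mice rests in part on those mice. It was 0.92 among knockout and 0.66 among Tln2-null mice, and 0.80 without both libraries of high Arntl. With genotype and sex means taken out it was 0.79 (permutation, adjusted p = 0.0116, too low as above). With total counts also taken out it was 0.81. With the macrophage score, a blood cell lineage in which kindlin-3 is known to be expressed, its r was 0.62 and did not pass (permutation p = 0.0113, adjusted 0.129; rho = 0.63, permutation p = 0.0107, adjusted 0.123). The other blood cell scores did not pass either and differed in direction. For Fermt3 r was 0.50 with the platelet score (permutation, adjusted p = 0.232) and 0.21 with the granulocyte score (adjusted p = 0.688). With the lymphocyte score r was -0.54 (permutation p = 0.0321, adjusted 0.214; rho = -0.66, permutation p = 0.0064, adjusted 0.0948).

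Lims2 went against the lymphocyte score, at r = -0.83 (permutation p = 0.00011, adjusted 0.0088; rho = -0.85, permutation p = 6e-05, adjusted 0.0048). The r was -0.85 among knockout and -0.87 among Tln2-null mice, and -0.76 without knockout 7 and Tln2-null 1 (permutation p = 0.00201). Lymphocyte markers were scarce: the 6 that passed the filter had means of 0.481 to 0.985 CPM and between 2 and 32 counts in a library. Cd79a, of the B cell receptor complex, had an r of -0.85 with Lims2 alone, the farthest from 0 of the 6. The others lay between -0.63 (Cd3g) and -0.51 (Cd2). The lymphocyte score rose with the title number (r = 0.74; permutation p = 0.00125, adjusted over 37 relations 0.0276; rho = 0.79, permutation p = 0.00042, adjusted 0.0155; r = 0.74 without Tln2-null 1 and knockout 8), as Lims2 fell with it. The cardiomyocyte score also rose with the title number (r = 0.66; permutation p = 0.00607, adjusted 0.0399; rho = 0.62, permutation p = 0.0122, adjusted 0.0906; r = 0.54 without Tln2-null 1 and knockout 8), and Lims2 had r = -0.59 with it (permutation p = 0.016, adjusted over 80 relations 0.16; rho = -0.44, permutation p = 0.0909, adjusted 0.331; r = -0.41 without knockout 7 and Tln2-null 1). Total counts had r = -0.53 with the title number (permutation p = 0.0299, adjusted 0.111; rho = -0.45, permutation p = 0.0786, adjusted 0.224; r = -0.28 without Tln2-null 1 and knockout 8). With the title number, genotype and sex taken out, the r of Lims2 with the score was -0.64. What part of the relation the title number carries was not tested.

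For each member the 3 genes of most similar course over the 16 mice were looked up among 12000 genes of at least 2 CPM, by Pearson r of log2 CPM and as a description. Tln1 ran most like Snx33 (r = 0.92), Esyt1 (0.89) and Lmf2 (0.89), and Tln2 like Gga2 (0.84), Gata6 (0.82), a cardiac transcription factor, and Klhl3 (0.81). Closest to Vcl were Pdia3 (0.89), Clic4 (0.88) and Rsl24d1 (0.87). Fermt2 was nearest to Foxn2 (0.87), Zfp260 (0.85) and Sec63 (0.85), and Fermt3 to B4galt5 (0.86), Fbrsl1 (0.83) and Selenon (0.82). Ilk ran with Sec61a1 (0.94), Nnmt (0.91) and Col6a1 (0.91), a collagen VI chain. Parva ran with Nfkb1 (0.91), Myef2 (0.89) and Col15a1 (0.89), a collagen XV chain. Scly (0.90), Tmco3 (0.83) and Ppp2r5b (0.80) were closest to Parvb. The genes nearest to Lims1 were 6820431F20Rik, Rbm27 and Smc6 (0.89, 0.89 and 0.88), and those nearest to Lims2 were Rin3 (0.90), Ramp2 (0.87) and Slc35a2 (0.86). Each r is the highest of a wide search and carries no test.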

How the data were processed

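Total RNA of 16 left ventricles was sequenced, 1 library per mouse. Per the labels' protocols, RNA came from TRIzol homogenates by column and was made into strand-marking libraries. The deposited table gives raw counts per gene symbol. A second deposited table gives a normalized signal, which equals those counts divided by 1 size factor per sample. DRAGEN, DESeq2 and mm10 are listed per the submitters' processing notes, without role or version. Annotation and strand setting of the counting: not given in the sources used here. Genotype and sex came from the labels.

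The 10 members and all lists were chosen with earlier results of these data known. Members are all named, partners by lowest p (up to 6) or a call, and 3 similar genes per member. Counts were fitted in edgeR 4.0.16 (R 4.3.3; filterByExpr, TMM, quasi-likelihood; 13775 genes) with Benjamini-Hochberg adjustment over all genes and a threshold of 0.05. Intervals use the test's SE. A second fit had 1 mean per genotype and sex. CPM in correlations had a prior count of 2. No library pair was a duplicate (120 pairs). Totals of 11161766 to 19221673 counts set a floor of 0.156 to 0.269 CPM (3 counts), for counting error only. Alternatives were DESeq2 1.42.0, limma 3.58.1 (voom, or log2 of signal + 1), sva 3.50.0, other filters, scalings and covariates, and left-out libraries. The fits were tested on simulated data. Lengths and positions came from GENCODE M21, promoters from RefSeq. Protein sequences were not used here.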

Additional observations from a re-analysis of the deposited data

Results flagged for a closer look

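In all, 3 values lay apart from the rest of their group by Dixon's criterion for small groups, out of 84 groups of values examined, and chance alone sets apart about 1 in 20 groups. Fermt3 in Tln2-null 7 was 6.867 CPM, above the other Tln2-null males. Parva in knockout 2 was 76.62 CPM, above the other knockout females. Lims1 in Tln2-null 8, 1 of the 2 libraries of high Arntl, was 251.7 CPM, above the other Tln2-null mice.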

How the results depend on the processing

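No paired analysis was possible because the numbers in the labels are unique to each mouse, so the groups share none. No member was called for genotype, sex or their interaction under any alternative run. The count of genes called for genotype, 0 as reported, was 1 without a filter on low counts, 1 with 1 surrogate variable, 17 by DESeq2, 11 by limma-voom and 5 without both libraries of high Arntl. It ran from 0 to 7 with single libraries left out (7 without knockout 8, 3 without Tln2-null 1, 1 without Tln2-null 4). In females it was 2 by DESeq2 and 0 to 1 with libraries left out. For sex, DESeq2 called 21 genes. For the title number, 874 as reported, the count was 1398 by DESeq2, 187 without both libraries of high Arntl, 219 without the females with most Y-linked counts and 229 to 1162 with single libraries left out. Members called for it numbered 1, 0 and 0 to 2 under the last 3. Among members 1 correlation passed with genotype and sex means taken out, 2 as reported. All permutation p-values with means taken out are too low, since the means already fitted were not allowed for. The causes of these moves were not tested. The 4 paralog ratios kept their side of the threshold throughout. With single libraries left out, their log2 differences ran from -0.14 to -0.04 (talins), 0.07 to 0.19 (kindlins), -0.08 to 0.0041 (parvins) and 0.16 to 0.31 (PINCH genes). Of the values of single genes or pairs under an alternative, 1390 kept their side of the threshold, 23 lost a call (title number slopes of Vcl or Lims2, or correlations of Ilk) and 1 gained one (Lims1 with the granulocyte score, means taken out). Fermt3, at under 10 CPM, and the lymphocyte markers are limited by depth.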
